A study of Mus musculus with 273 samples.

Results

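Small RNA libraries of 2 brain regions were compared, the cerebral cortex and the hypothalamus, with time of day as a factor. All 78 cortex and all 72 hypothalamus libraries were taken, 150 of the 273 libraries in the series, which also covers striatum and liver. Every mouse was a wild-type C57BL/6J male aged 26 weeks, of an inbred laboratory strain, and carried no transgene or treatment. Cortex came from the right hemisphere, while for hypothalamus no side is labelled. Tissue was collected every 3 h from 0 to 36 h, and times 24 h apart were joined to 8 zeitgeber times (ZT, in which ZT0 is by convention the time of lights on; the lighting schedule was not given in the sources used here). Cortex held 12 libraries at each time from ZT0 to ZT12 and 6 at each of ZT15, ZT18 and ZT21. Hypothalamus held 12, 11, 12, 10 and 12 from ZT0 to ZT12 and 5 at each later time. By the animal codes in the labels, 72 mice gave both tissues. The main test had no term for the mouse, so its p-values measure the spread between libraries of a tissue. They do not measure the spread of the difference within mice, and a fit with the mouse as a replicate block was an alternative setting.

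A microRNA (miRNA) is a short RNA that is excised from the arms of a hairpin transcript and loaded into an Argonaute protein. Its seed, bases 2 to 8 from the 5′ end, pairs with sites in messenger RNAs, which are then translated less or degraded, so miRNAs with 1 seed can share targets. The cortex is rich in excitatory projection neurons, while the hypothalamus holds many kinds of neurosecretory neuron that set feeding, body temperature, reproduction and daily timing. In bulk tissue, fewer cells of a type and less of an RNA per cell cannot be told apart.

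The sequences of the miRNAs on which the comparison turned are given first, from RefSeq (GRCm38.p6), with the seed in capitals. A deposited count belongs to a hairpin and adds both of its mature arms, so the arm shown is not known to be the one counted. The first set was higher in hypothalamus, and within it miR-7a and miR-7b share a seed, as do miR-758 and miR-1197.
miR-653-5p: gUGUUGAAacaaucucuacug
miR-489-3p: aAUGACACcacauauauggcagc
miR-217-5p: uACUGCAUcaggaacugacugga
miR-298-5p: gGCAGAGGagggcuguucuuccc
miR-7a-5p: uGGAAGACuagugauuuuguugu
miR-7b-5p: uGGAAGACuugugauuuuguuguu
miR-758-5p: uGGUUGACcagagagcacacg
miR-1197-5p: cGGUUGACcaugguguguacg

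The next set was higher in cortex. The hairpins miR-128-1 and miR-128-2 give 1 identical sequence, as do miR-138-1 and miR-138-2. miR-132 and miR-212 share a seed, and so do miR-221 and miR-222.
miR-128-3p: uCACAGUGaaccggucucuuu
miR-138-5p: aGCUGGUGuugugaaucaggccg
miR-132-3p: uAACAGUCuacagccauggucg
miR-212-3p: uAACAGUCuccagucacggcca
miR-221-3p: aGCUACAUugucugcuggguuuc
miR-222-3p: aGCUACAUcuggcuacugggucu
miR-22-3p: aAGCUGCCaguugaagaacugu

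The last set shows seeds whose hairpins differed between the tissues in opposite directions. The 5′ arms of miR-218-1 and miR-218-2 are identical, as are those of miR-135a-1 and miR-135a-2, and their 3′ arms tell the copies apart.
miR-218-5p: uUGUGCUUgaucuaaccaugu
miR-218-1-3p: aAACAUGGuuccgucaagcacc
miR-218-2-3p: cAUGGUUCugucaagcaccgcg
miR-135a-5p: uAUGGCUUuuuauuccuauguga
miR-135a-1-3p: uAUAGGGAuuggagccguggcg
miR-135a-2-3p: uGUAGGGAuggaagccaugaa
miR-34a-5p: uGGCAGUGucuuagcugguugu
miR-449a-5p: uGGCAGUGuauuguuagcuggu
miR-34b-5p: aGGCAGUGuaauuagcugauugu
miR-30a-5p: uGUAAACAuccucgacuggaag
miR-384-5p: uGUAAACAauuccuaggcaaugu
miR-30c-2-3p: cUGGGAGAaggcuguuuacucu
miR-6958-5p: gUGGGAGAagaggcugcugugg

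Library totals ran from 1164449 to 4980887 counts in cortex (median 3119447.5) and from 1079380 to 3954710 in hypothalamus (median 2120502). Levels are in CPM, counts per 1000000 of a library. Where a library has no count for a hairpin, counting error alone allows 3, or 0.602 to 2.58 CPM in cortex and 0.759 to 2.78 in hypothalamus. Of 1226 hairpins in the tables, 376 passed the filter on low counts and were tested, and these held 99.97% of the counts in each tissue. The first principal component separated the tissues and held 65.5% of the variance. The second (7.89%) was led by miR-141, miR-200a, miR-200c and other members of the miR-200 and miR-183 families. In these or other miRNAs 6 libraries stood apart. Hypothalamus ZT0 replicate 9 and ZT9 replicate 8 were high in miR-375, miR-141, miR-200c and miR-205. Cortex ZT12 replicate 4, ZT15 replicate 1 and ZT21 replicate 2 were high in miR-182, miR-183 and miR-96, and Cortex ZT0 replicate 1 was high in miR-204 and other miRNAs of the hypothalamus. miR-122, the defining miRNA of hepatocytes, had a median of 1.51 CPM in cortex and 1.74 in hypothalamus, with 62.2 CPM in Hypothalamus ZT0 replicate 12. The 7 miRNAs of skeletal and heart muscle summed to at most 6.51 CPM in any library.

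The 2 regions differed in most of their miRNAs, and in 108 of 376 the difference was at least 2-fold (28.7%; edgeR quasi-likelihood test, Benjamini-Hochberg adjusted p under 0.05 and an absolute log2 ratio of at least 1, which is what "called" means here). Of these, 62 were higher in hypothalamus (16.5%) and 46 in cortex (12.2%). Adjusted p alone passed for 339 (90.2%), split into 167 higher in hypothalamus and 172 in cortex, and with so many libraries it passed for small differences too. The log2 ratio, always hypothalamus over cortex, had a median of -0.03 over all tested miRNAs and quartiles of -0.62 and 0.57. The ranges of the 2 tissues did not overlap for 49 miRNAs, of which 43 were called. In 63 of the 108 called miRNAs all 72 mice had the difference on the same side. The 108 were picked from these same libraries, so this is no independent evidence. Some miRNAs that were not called did the same, such as miR-410 (higher in hypothalamus) and miR-212 (higher in cortex). The share over all 376 was not counted. The miRNAs called higher in cortex took 22.2% of the counts in cortex and 9.21% in hypothalamus. Those called higher in hypothalamus took 1.94% in cortex and 6.02% in hypothalamus. At a mean of 1000 CPM or more in the higher tissue, 12 were called on each side. The plot of ratio against level shows both.

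Some libraries lay nearer to the other tissue than the rest. Cortex ZT0 replicate 1 was the highest of the 78 cortex libraries in 31 of the 62 miRNAs called higher in hypothalamus, and no other cortex library was so in more than 3. It held the cortex maxima of miR-653 (43.9 CPM), miR-217 (13.6), miR-3547 (148.4), miR-298 (966.2), miR-7a-2 (40.5), miR-758 (341.9), miR-34b (230.2) and miR-204 (40152). The next cortex libraries had at most 18.2, 9.81, 69.5, 553.6, 30.8, 203.3, 128.3 and 14860 CPM of these. It was the lowest cortex library in 11 of the 46 miRNAs called higher in cortex, miR-128-1, miR-132 and miR-22 among them, and Cortex ZT9 replicate 9 was lowest in 16. Hypothalamus ZT15 replicate 4 was the lowest hypothalamus library in 11 of the 62 and the highest in 11 of the 46. Without Cortex ZT0 replicate 1, 63 and 47 miRNAs were called, the ranges of 57 miRNAs did not overlap in place of 49, and the log2 ratio of miR-653 was 6.40 in place of 6.24. Without all 3 libraries 64 and 45 were called. Why these libraries stood apart was not tested.

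**Figure D1:**
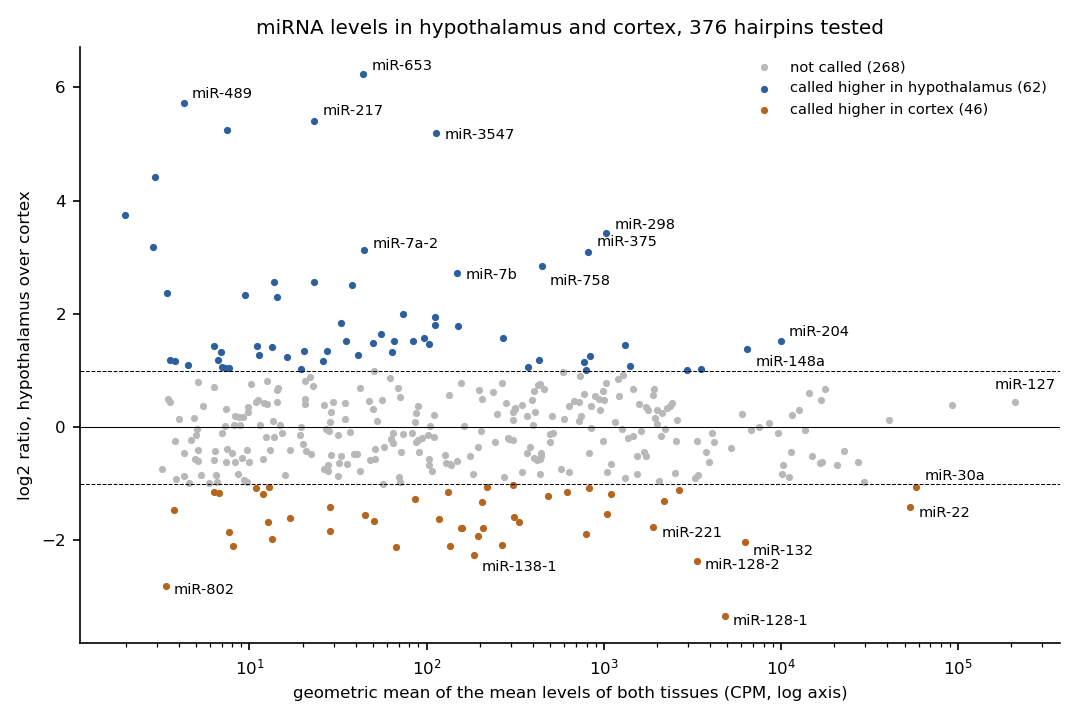
Each of the 376 tested hairpins by its level in CPM (geometric mean of both tissues, log axis) and its log2 ratio of hypothalamus over cortex, with blue for the 62 called higher in hypothalamus, brown for the 46 called higher in cortex, gray for the rest and dashed lines at the ratio a call needs. miR-653 stands highest at 6.24 and miR-128-1 lowest at -3.34, and miR-22 and miR-30a are abundant miRNAs among those called higher in cortex.

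miR-653 and miR-489, which lie in an intron of the calcitonin receptor gene Calcr, had the largest ratios. Levels of miR-653 (chromosome 6, 3721301 to 3721385, minus strand, GRCm38) in cortex ran from 0 to 43.9 CPM with a median of 4.16, and in hypothalamus from 190.5 to 624.8 with a median of 368.3. The lowest hypothalamus library was above the highest cortex library. The log2 ratio was 6.24 ± 0.12 (SE), a 75.4-fold difference (adjusted p = 8.67e-93), and within a mouse it ran from 3.41 to 9.15. Its neighbor miR-489 (3721897 to 3722003) had a ratio of 5.73 ± 0.13, from a median of 0.370 CPM in cortex, where 26 libraries had no count, to 33.4 in hypothalamus. Calcr codes for a receptor expressed by hypothalamic neurons.

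A second group of hairpins, known from the exocrine pancreas, was nearly as uneven. miR-217 (chromosome 11, 28763728 to 28763835, plus strand) lies in an intron of the noncoding gene Gm12082. Its levels ran from 0.623 to 13.6 CPM in cortex (median 3.15) and from 48.8 to 222.8 in hypothalamus (median 154.3), again without overlap. The ratio was 5.40 ± 0.09, or 42.2-fold (adjusted p = 3.71e-101). miR-216a, in the same intron (28757012 to 28757083), had 5.25 ± 0.11 and medians of 1.06 and 45.7 CPM. miR-216b (28746191 to 28746276) had 4.41 ± 0.11, with a median of 0.553 CPM in cortex, below what 3 counts amount to in any library. All 3 were higher in hypothalamus in 72 of 72 mice.

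miR-3547 (chromosome 17, 25245551 to 25245638, minus strand), in an intron of Baiap3, ranged from 2.38 to 148.4 CPM in cortex (median 12.5) and from 343.6 to 1009 in hypothalamus (median 728.7). Its groups did not overlap, and its ratio was 5.19 ± 0.15, or 36.6-fold (adjusted p = 2.80e-69). Baiap3 codes for a protein of dense core vesicle traffic. miR-298 and miR-296 lie close together on chromosome 2 near the imprinted Nespas and Gnas genes. miR-298 (174267504 to 174267585) ran from 166.7 to 966.2 CPM in cortex (median 297.9) and from 2155 to 4630 in hypothalamus (median 3248), with a ratio of 3.42 ± 0.06, or 10.7-fold. miR-296 had 1.99 ± 0.06, and its highest cortex library (83.7 CPM) overlapped its lowest hypothalamus library (78.4).

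The miR-7 family, abundant in neuroendocrine cells, differed by gene copy. miR-7a-2 (chromosome 7, 78888277 to 78888373) ran from 3.61 to 40.5 CPM in cortex (median 14.9) and from 96.7 to 297.4 in hypothalamus (median 127.3), with a ratio of 3.14 ± 0.08. miR-7b (chromosome 17, 56242988 to 56243098), whose medians were 57.1 and 368.6 CPM, had 2.72 ± 0.05. Neither overlapped between the tissues. miR-7a-1 (chromosome 13, 58392779 to 58392886) encodes the same 5′ arm as miR-7a-2, had medians of 95.0 and 83.8 CPM and a ratio of -0.23 ± 0.03, with overlapping ranges. The 3 hairpins hold identical or nearly identical 5′ arms, and how reads that match several places were counted is not given in the sources used here, so the split between copies is uncertain.

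**Figure D2:**
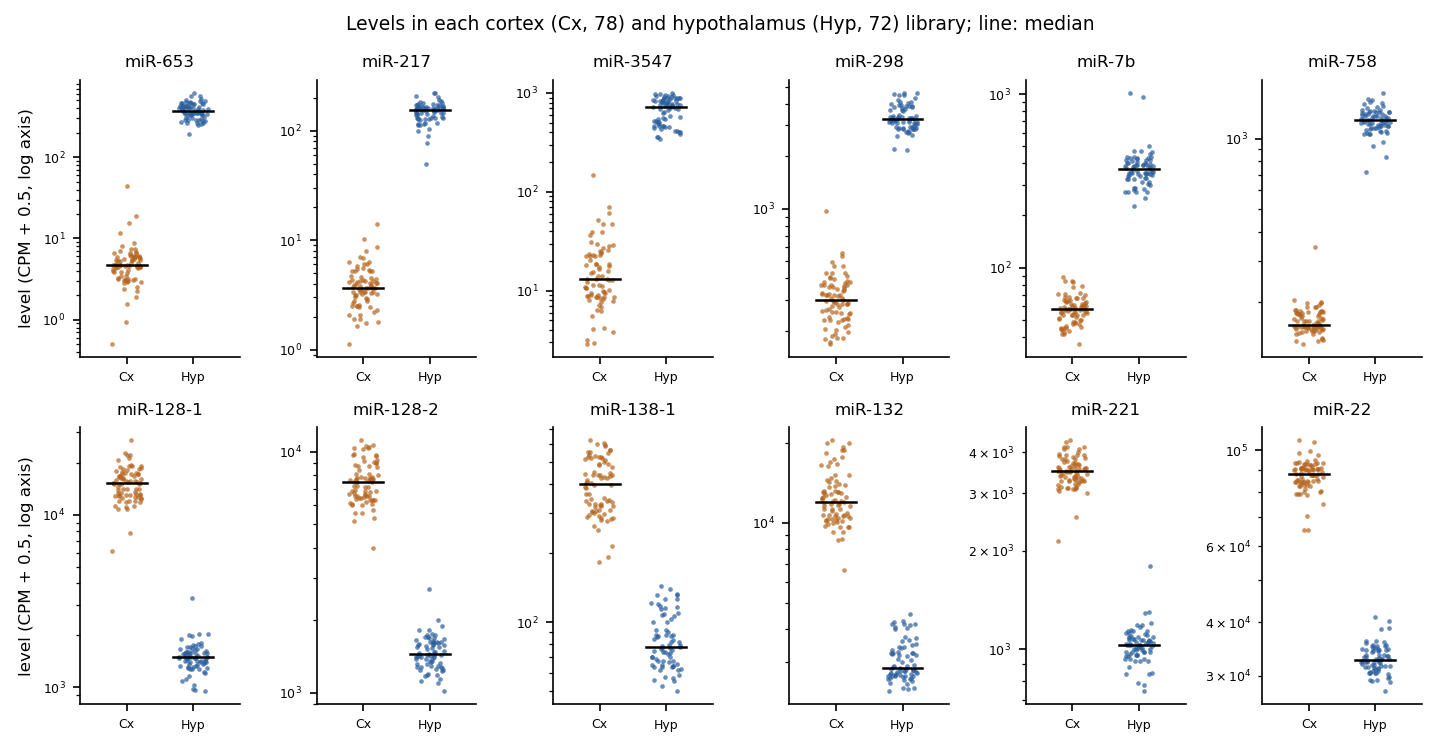
Levels of 12 miRNAs in CPM (plus 0.5, log axis) in each of the 78 cortex (Cx, brown) and 72 hypothalamus (Hyp, blue) libraries, with the median as a line. The upper row holds miRNAs called higher in hypothalamus and the lower row miRNAs called higher in cortex, and in none of the 12 do the tissues overlap.

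miR-128, an inhibitor of neuronal excitability that comes from 2 genes, had the largest ratio on the cortex side. miR-128-1 (chromosome 1, 128202361 to 128202430), in an intron of R3hdm1, ran from 6193 to 27160 CPM in cortex (median 15247) and from 948.1 to 3291 in hypothalamus (median 1490). The groups did not overlap, and the ratio was -3.34 ± 0.05, or 10.1-fold higher in cortex (adjusted p = 3.25e-105). miR-128-2 (chromosome 9, 112118636 to 112118711), in an intron of Arpp21, had medians of 7491 and 1445 CPM and a ratio of -2.36 ± 0.04, or 5.12-fold. The hairpins stood at about the same median in hypothalamus, and miR-128-1 was the higher of them in cortex. They give an identical mature arm, and how reads that match both were counted is not given, so this split between copies is uncertain.

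miR-138 and miR-132 were also higher in cortex. miR-138-1 had medians of 401.6 CPM in cortex and 77.6 in hypothalamus (ratio -2.25 ± 0.07), and miR-138-2, which gives the same mature 5′ arm from chromosome 8, had 134.7 and 30.8 (-2.11 ± 0.06). The split between these 2 copies is uncertain for the same reason as for miR-128. miR-138 limits the growth of dendritic spines. miR-132 (chromosome 11, 75173682 to 75173747), induced by neuronal activity through CREB, ran from 6659 to 20516 CPM in cortex (median 12019) and from 2324 to 4527 in hypothalamus (median 2853), a ratio of -2.03 ± 0.05. The groups did not overlap. miR-212 (75173388 to 75173478), from the same primary transcript and with the same seed, had medians of 1962 and 1148 CPM and a ratio of -0.82 ± 0.04, which missed the call though it was higher in cortex in all 72 mice. miR-139, in an intron of Pde2a, had -1.89 ± 0.05, miR-129-1 -1.91 ± 0.05 and miR-31 -2.11 ± 0.08.

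Of 20 tested hairpins on a list of neuronal miRNAs, 9 were called higher in cortex and 5 in hypothalamus, against 12.2% and 16.5% of all tested miRNAs, with a median ratio of -0.73 against -0.03 over all. The 5 were miR-149 (1.01 ± 0.06), miR-384 (1.07 ± 0.05), miR-135a-2 (2.51 ± 0.05), miR-218-1 (1.28 ± 0.04) and miR-124-2 (1.43 ± 0.07). The list summed to a median of 34085 CPM in cortex and 16671 in hypothalamus. Most of the cortex sum was miR-128. Means of miR-128-1 and miR-128-2 were 15356 and 7585 CPM in cortex, and 1512 and 1480 in hypothalamus. The sum is therefore no measure of the list as a whole. Adjusted p passed for 11 of the 20 on the cortex side and 9 on the hypothalamus side, against 172 and 167 of all 376. Hairpins of miR-9 and miR-124, both abundant in neurons as mature miRNAs, had low counts here, with means under 20 CPM for miR-9-1, miR-9-3 and miR-124-2, which share a mature sequence with other genomic copies. The list of hypothalamic and endocrine miRNAs was drawn up with earlier results of these data known, so its direction is no independent evidence. Of its 9 tested hairpins 8 were called higher in hypothalamus (16.5% of all tested), and the other was miR-7a-1.

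Several widespread families were higher in cortex. All 6 hairpins of the miR-23, miR-27 and miR-24 clusters, of which 4 were called, had ratios from -1.98 to -0.78. In the miR-15/16 family 4 of 7 were called higher in cortex, where 12.2% of all tested miRNAs were. These were miR-497a (-2.08 ± 0.09), miR-195a (-1.77 ± 0.05), miR-15a (-1.59 ± 0.04) and miR-16-1 (-1.42 ± 0.05). miR-221 and miR-222 had -1.76 ± 0.03 and -1.31 ± 0.04, with summed medians of 6993 CPM in cortex and 2352 in hypothalamus. On the cortex side, adjusted p alone passed for 172 of all 376 tested miRNAs. Of 13 let-7 hairpins 11 passed it on that side, but 1 was called, let-7b (-1.10 ± 0.04), and miR-98 went the other way (0.30 ± 0.04). Of 15 hairpins of miR-17/92 and its paralogues 9 were tested, and 7 passed adjusted p on the cortex side with none called.

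Other families were split, or had like ratios without a call. In the miR-181 family, known from lymphocytes and neurons, miR-181a-1 (-1.19 ± 0.04) and miR-181b-2 (-1.06 ± 0.04) were called higher in cortex, while miR-181c (0.60 ± 0.04) and miR-181d (0.56 ± 0.03) passed adjusted p on the hypothalamus side. miR-181c was the most abundant member, with medians of 11486 CPM in cortex and 17916 in hypothalamus. miR-29a, a repressor of collagen genes, had medians of 21092 and 13740 CPM and a ratio of -0.61 ± 0.02, short of a call although its ranges did not overlap. All 4 tested miR-29 hairpins passed adjusted p on the cortex side, as did 172 of all 376 tested miRNAs, and none was called. On the hypothalamus side, miR-301a (0.85 ± 0.04), miR-130a (0.76 ± 0.04) and miR-301b (0.69 ± 0.04) had like ratios, and miR-130b had 0.02 ± 0.02. miR-107, whose host is a pantothenate kinase gene, had -1.08 ± 0.05. miR-10a, a miRNA of the Hox clusters that marks position along the body axis, had medians of 283.3 and 608.2 CPM and a ratio of 1.18 ± 0.07, with overlapping ranges, and miR-10b had 0.68 ± 0.09. Outside the Dlk1-Dio3 region and the Nespas and Gnas locus, the imprinted miR-335 in Mest had 0.38 ± 0.03 and miR-184 had -1.55 ± 0.10.

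Among the most abundant miRNAs, miR-22 (chromosome 11, 75463716 to 75463810) ran from 65196 to 105740 CPM in cortex (median 88016) and from 27637 to 41112 in hypothalamus (median 32687). The ranges did not overlap, and the ratio was -1.41 ± 0.02 (adjusted p = 1.70e-112). miR-30a (chromosome 1, 23272269 to 23272339) had medians of 80441 and 41236 CPM, no overlap, and a ratio of -1.05 ± 0.04. Its call rested close to the threshold, and it was lost under 10 of 31 alternative settings, with a ratio of -0.93 at the smallest. All 6 tested miR-30 hairpins passed adjusted p on the cortex side, as did 172 of all 376 tested miRNAs. The other one called was miR-30c-2 (-1.14 ± 0.03). On the hypothalamus side, miR-148a, a miRNA also abundant in liver and secretory tissues, had medians of 3867 CPM in cortex and 9919 in hypothalamus (ratio 1.38 ± 0.05), with overlapping ranges.

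Some abundant miRNAs showed almost no difference. Among miRNAs with a mean of at least 1000 CPM in both tissues, the ratios nearest to 0 belonged to miR-300 (0.01 ± 0.02), miR-125b-2 (-0.03 ± 0.03), miR-101b (-0.03 ± 0.03), miR-100 (-0.05 ± 0.07) and miR-99b (-0.05 ± 0.06). miR-300 had medians of 7693 CPM in cortex and 7618 in hypothalamus. With library totals in place of trimmed-mean (TMM) scaling, which moved the median of all ratios by 0.113, miR-125b-2 and miR-101b turned to 0.09 and 0.07. Nearest to the call threshold on the inside were miR-6236, miR-421 and miR-149 (1.03, 1.02 and 1.01) and miR-337, miR-30a and miR-181b-2 (-1.02, -1.05 and -1.06). Nearest outside were miR-7068, miR-382 and miR-598 (0.99, 0.97 and 0.92) and miR-7220 and miR-16-2 (-0.99 each), together with miR-7224, whose ratio rounds to the threshold.

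The imprinted Dlk1-Dio3 region on chromosome 12, whose miRNAs are expressed from the maternal copy, held the largest block of tested hairpins, 49 over 184.2 kb. Together they took 33.6% ± 1.47 (SD, n = 78) of the counts in cortex, from 30.3% to 36.8%, and 47.4% ± 2.09 (n = 72) in hypothalamus, from 39.4% to 50.5%. The ranges did not overlap. Much of this share belonged to miR-127, which had medians of 176890 CPM in cortex and 243510 in hypothalamus and a ratio of 0.45 ± 0.02. Of the 49, 31 passed adjusted p on the hypothalamus side and 13 on the cortex side, against 167 and 172 of all 376 tested miRNAs. Only 5 (10.2%) were called higher in hypothalamus, below the 16.5% of all tested miRNAs, and 1 was called higher in cortex. The median ratio was 0.30.

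Ratios within the region ran from -1.02 to 2.85, though neighboring hairpins lie on the same strand. miR-758 (109712810 to 109712890) ran from 131.3 to 341.9 CPM in cortex (median 159.1) and from 716.6 to 1574 in hypothalamus (median 1201), without overlap. Its ratio was 2.85 ± 0.03, or 7.21-fold, and its adjusted p of 6.22e-124 was the smallest of all tested miRNAs. Hairpins within 1 kb of it differed. miR-1197, with the same 5′ seed, had 1.32 ± 0.07 at means of 4.36 and 10.9 CPM, miR-323 had 0.49 ± 0.03 and miR-329 -0.46 ± 0.03. The other calls higher in hypothalamus were miR-770 in an exon of Meg3 (1.78 ± 0.05), miR-134 (1.57 ± 0.03), a regulator of dendritic spine size, and miR-380 (1.26 ± 0.03). On the cortex side miR-337 had -1.02 ± 0.04, a call that was lost under 25 of 31 alternative settings, and miR-299a (-0.97 ± 0.03) and miR-411 (-0.50 ± 0.02) were higher in cortex in all 72 mice without reaching the call. A plot of ratio against position shows that neighbors differed.

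**Figure D3:**
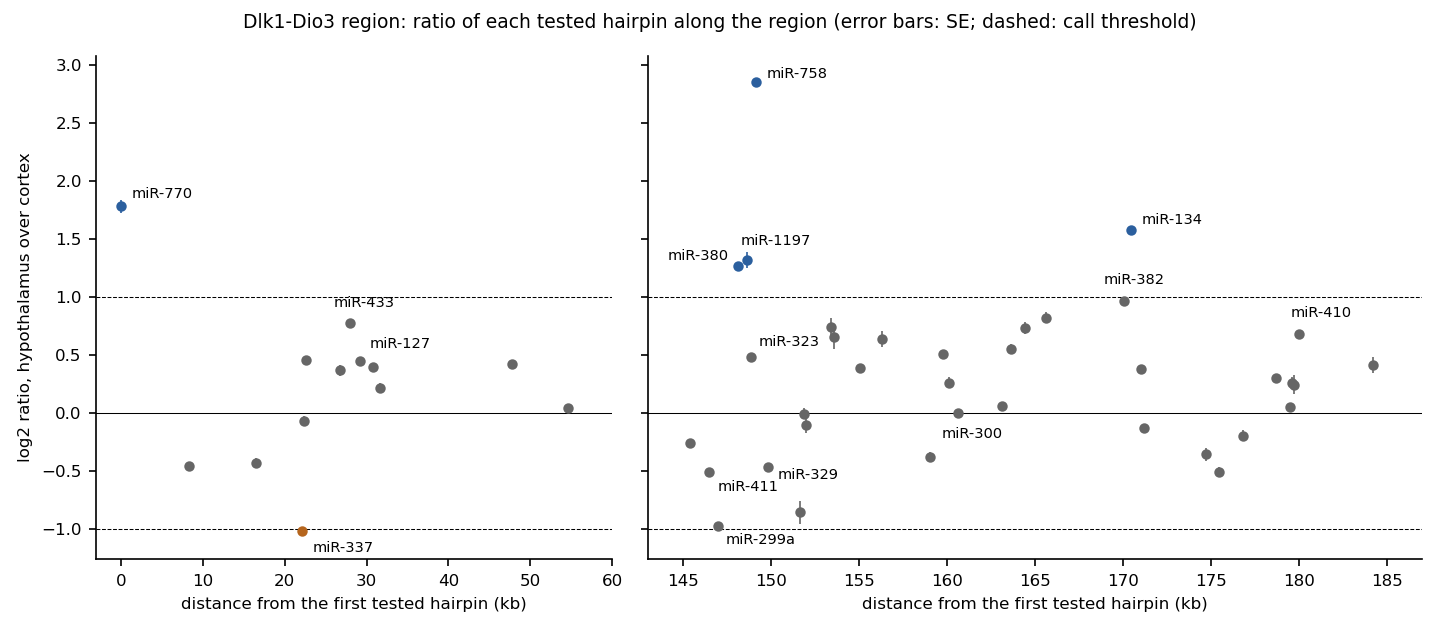
Log2 ratio of hypothalamus over cortex, with its SE, of the 49 tested Dlk1-Dio3 hairpins against the distance in kb from the first of them, with an empty stretch left out between the panels; blue marks calls higher in hypothalamus, brown higher in cortex, and dashed lines the ratio a call needs. miR-758 stands at 2.85 between miR-323 at 0.49 and miR-329 at -0.46.

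Hairpins that share a seed were compared with each other. A mature sequence was found in RefSeq for 347 of the tested hairpins, which gave 72 seeds borne by at least 2 of them. Both arms of a hairpin can count, so these seeds are not all separate families. In 39 of the 72 the ratios fell on both sides of 0. Over all 376 tested miRNAs, adjusted p passed for 167 on the hypothalamus side and 172 on the cortex side. How often unrelated hairpins would fall on both sides was not tested. In 12 of all 72 seeds 2 or more hairpins were called and all on the same side. In 5 seeds, hairpins were called on opposite sides, and in 31 adjusted p alone passed in both directions. miR-218-1, in an intron of Slit2, had medians of 26.4 CPM in cortex and 62.02 in hypothalamus (1.28 ± 0.04), while miR-218-2, in an intron of Slit3, had 89.0 and 27.7 (-1.66 ± 0.04). In both the ranges of the tissues did not overlap. Slit2 and Slit3 code for axon guidance ligands. miR-135a-2, in an intron of Rmst, had medians of 15.4 and 90.4 CPM (2.51 ± 0.05), and its neighbor in the same gene, miR-1251, had 2.56 ± 0.08. miR-135a-1 had 9.14 and 3.85 CPM (-1.14 ± 0.09), with overlapping ranges.

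In the miR-34 and miR-449 family, miRNAs known as targets of p53 and from multiciliated cells, miR-34a had medians of 285.7 CPM in cortex and 84.0 in hypothalamus (-1.78 ± 0.06). miR-449a, at 17.8 and 7.36 CPM, also lay on the cortex side (-1.17 ± 0.12). miR-34b, with medians of 51.3 and 214.9, had 1.94 ± 0.06, and miR-34c, from the same transcript on chromosome 9, had 733.2 and 1948 (1.45 ± 0.09). Under the miR-30 seed miR-384, a neuronal miRNA, had 1.07 ± 0.05 while miR-30a and miR-30c-2 were higher in cortex. The fifth seed joined the 3′ arm of miR-30c-2 with miR-6958, which had means of 2.54 and 5.62 CPM (1.17 ± 0.08). The copies of miR-218 and of miR-135a share a mature arm, so their split depends on a read handling that was not given.

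**Figure D4:**
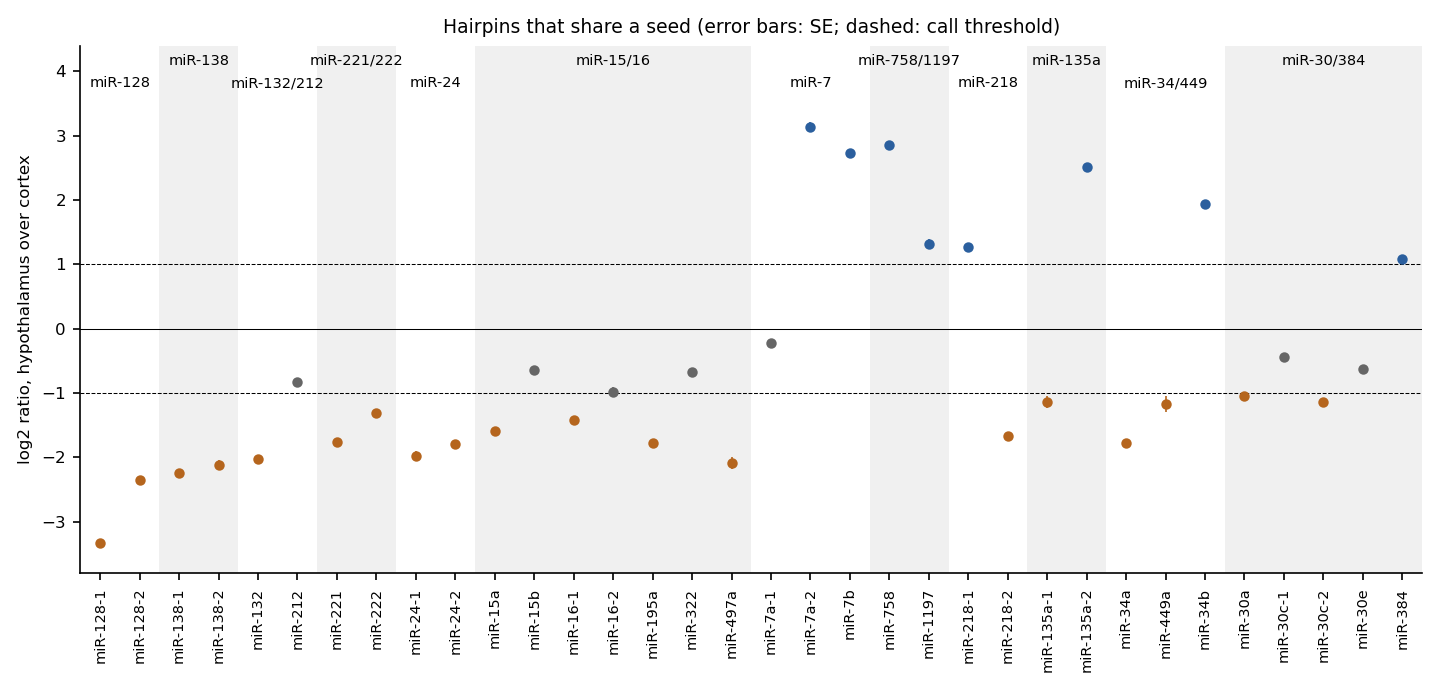
Log2 ratio of hypothalamus over cortex, with its SE, of hairpins in 12 groups that share a seed on 1 arm, colored blue where called higher in hypothalamus, brown where called higher in cortex and gray where not called. Every hairpin of the miR-15/16 group lies below 0, whereas miR-218-1 and miR-218-2 stand at 1.28 and -1.66.

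Hairpins in 1 host gene or cluster could be compared as well. Tested hairpins with 10000 bases or less between them on 1 strand formed 44 clusters. In the Htr2c intron, which hosts miRNAs with the serotonin 2C receptor, miR-764 (1.64 ± 0.10), miR-448 (1.51 ± 0.12) and miR-1264 (1.35 ± 0.10) were called higher in hypothalamus and miR-1298 (0.45 ± 0.12) was not. Levels in cortex varied widely: miR-448 ran from 8.64 to 528.0 CPM in cortex and from 101.7 to 170.2 in hypothalamus. In the miR-344 cluster on chromosome 7 miR-344e (3.75 ± 0.11) and miR-344f (2.33 ± 0.06) were called higher in hypothalamus at low levels (means of 7.35 and 21.4 CPM there). Their means in cortex were 0.534 and 4.21 CPM, that of miR-344e below what 3 counts amount to in any library. miR-344b, the most abundant of the cluster, had 0.64 ± 0.04, and miR-344c had -0.40 ± 0.05.

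miR-204, a miRNA of choroid plexus and pigmented epithelium in an intron of Trpm3, ran from 3757 to 40152 CPM in cortex (median 5058) and from 13645 to 20972 in hypothalamus (median 16892). Its ratio was 1.53 ± 0.07, and in 71 of 72 mice it was higher in hypothalamus. The list of choroid plexus and ependymal miRNAs summed to 4574 to 43234 CPM in cortex (median 5964) and 15915 to 22979 in hypothalamus (median 19259), with 3 of 5 tested members called higher in hypothalamus and 1, miR-449a, in cortex (16.5% and 12.2% of all tested miRNAs). miR-34b and miR-34c are also on this list. So is miR-211, which shares a seed with miR-204. It had medians of 11.5 CPM in cortex and 14.1 in hypothalamus (0.11 ± 0.09) and did not pass adjusted p. Most of the list sum was miR-204, with means of 5893 and 16857 CPM. No member was at 0 throughout both tissues, and the part of these cells in the tissue differences was not tested. Cortex ZT0 replicate 1 held the highest miR-204, and without the 6 libraries that stood apart the ratio was 1.68.

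Lists of markers of other cells were measured too. The endothelial miR-126a had -0.67 ± 0.04, and miR-143 and miR-145a of mural cells had -0.67 ± 0.05 and -0.51 ± 0.05. Of 6 tested miRNAs of white blood cells and microglia none reached the ratio for a call, and adjusted p from edgeR passed for 2 in each direction. miR-451a and 3 other red blood cell miRNAs had ratios from 0.32 to 0.47. miR-338 and miR-219a-2, known from oligodendrocytes, had -0.26 ± 0.04 and -0.45 ± 0.05, and miR-219a-1 had 0.04 ± 0.06. The list sums for oligodendrocytes overlapped, with medians of 5201 CPM in cortex and 4418 in hypothalamus. On the list of hepatocyte miRNAs miR-802 was called higher in cortex (-2.80 ± 0.13), at means of 8.72 and 1.29 CPM, while miR-192 had -0.15 ± 0.04. The part of these cells in the tissue differences was not tested.

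The difference was then taken at each time of day, in separate mice. Called miRNAs numbered 108 at ZT0 (28.7%), 102 at ZT3 (27.1%), 107 at ZT6 (28.5%), 112 at ZT9 (29.8%), 118 at ZT12 (31.4%), 106 at ZT15 (28.2%), 109 at ZT18 (29.0%) and 111 at ZT21 (29.5%). Of the 108 called over all times, 72 were called on the same side at all 8. Ratios of miR-653 lay between 5.63 and 6.54 over the 8 times, those of miR-128-1 between -3.38 and -3.30, those of miR-132 between -2.23 and -1.83 and those of miR-758 between 2.68 and 3.05. In the first passage (0 to 21 h; 48 cortex and 42 hypothalamus libraries) and the second (24 to 36 h; 30 and 30), 107 of the 108 were tested in both and had the same sign. Of these, 51 higher in hypothalamus and 39 higher in cortex were called in both. The 108 were picked from these same libraries, so their agreement across times or passages is no independent evidence.

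The test of whether the difference changed with time of day (tissue by ZT interaction, edgeR) called 6 of 376 miRNAs (1.60%), and 33 had an unadjusted p under 0.05. They were miR-375 (adjusted p = 2.69e-07), miR-141 and miR-200c (3.60e-05 each), miR-200b (0.00278), miR-429 (0.00387) and miR-200a (0.00501). miR-375 is known from pancreatic islets and the pituitary, and the miR-200 family maintains epithelial cells. miR-375 ran from 91.7 to 355.9 CPM in cortex (median 168.6) and from 262.6 to 133420 in hypothalamus (median 604.7). The 2 highest hypothalamus libraries were ZT0 replicate 9 with 133420 and ZT9 replicate 8 with 90423, and the next was ZT0 replicate 2 with 5726. The same 2 held 9340 and 6691 CPM of miR-141 against a hypothalamus median of 64.9, and 968 and 1020 CPM of miR-7b against 368.6.

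Without those 2 libraries the interaction called 0 miRNAs (33 with unadjusted p under 0.05), and with the mouse as a replicate block it also called 0 (14 with unadjusted p under 0.05). DESeq2 called 5, among them neither miR-375 nor miR-141. Without ZT9 replicate 8 alone 3 remained called, and without ZT0 replicate 9 alone all 6 did. Over all times miR-375 was still called without the 2 libraries, with a ratio of 2.24 in place of 3.09 (± 0.30), and it was higher in hypothalamus in 72 of 72 mice. miR-141 and miR-200c, called over all times with 1.80 ± 0.42 and 1.28 ± 0.38, had 0.94 and 0.26 and lost their calls without the 2. Without the 6 libraries that stood apart miR-141 was still called (1.33), and miR-200c was not (0.71). Sums over the 5 miR-200 family members ran from 27.3 to 3966 CPM in cortex (median 135.3) and from 21.9 to 14117 in hypothalamus (median 169). In the miR-183 cluster, known from sensory cells and the pineal gland, miR-96 was called higher in cortex (-1.16 ± 0.27) and miR-182 and miR-183 were not (-0.44 ± 0.23 and -0.60 ± 0.22). miR-96 had -1.47 and kept its call without the 2, and it had -0.97 and lost its call without the 6. Whether cells that carry the miR-200 and miR-183 families contributed to these values was not tested.

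**Figure D5:**
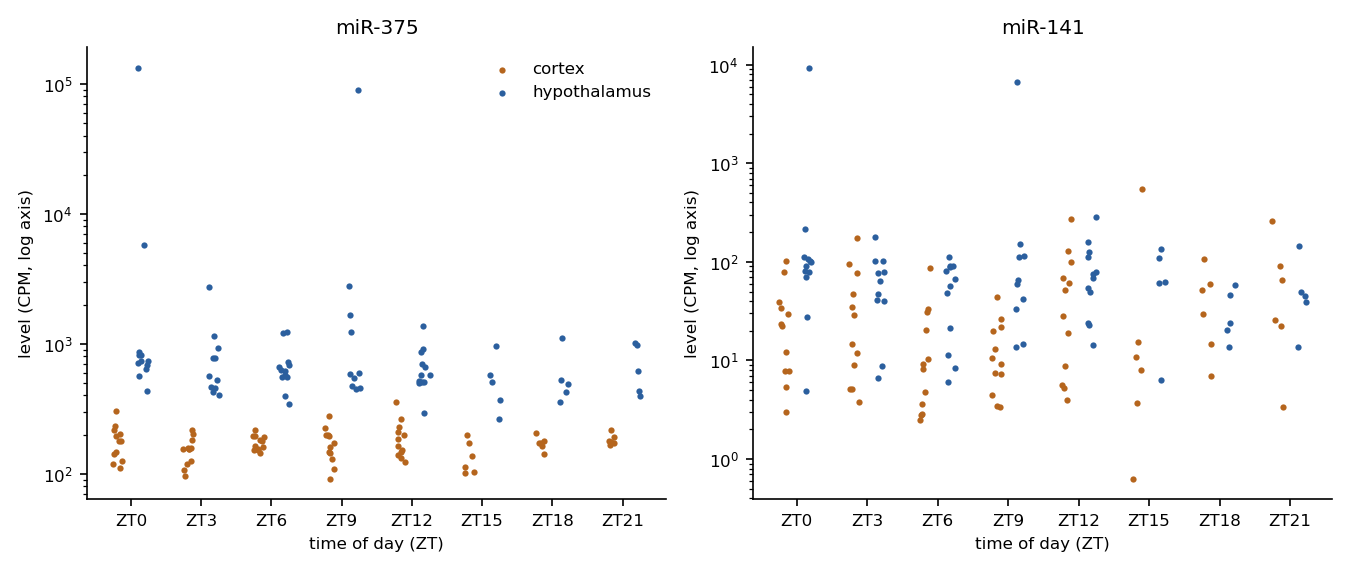
Levels of miR-375 and miR-141 in CPM (log axis) in each cortex (brown) and hypothalamus (blue) library by time of day. The 2 libraries at ZT0 and ZT9 that held 133420 and 90423 CPM of miR-375 also held the highest levels of miR-141, 9340 and 6691.

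Both tissues were spread over library runs, taken as stretches of library numbers that share 1 code in the labels (whether a code is a sequencing run is not stated). Of these, 9 of 10 held both tissues. With run as a further term 61 miRNAs were called higher in hypothalamus and 46 in cortex. A few small RNAs followed the runs. Medians of miR-6240 in cortex ran from 89.2 CPM in the lowest run to 981.7 in the highest, and those of miR-6236 from 646.1 to 3017. Their ratios were 1.15 ± 0.20 and 1.03 ± 0.16, and with run as a term 1.12 and 0.93, so miR-6236 lost its call. miR-6236 also differed between passages, with 0.60 and no call at 0 to 21 h and 1.82 at 24 to 36 h. Both were higher in hypothalamus in 9 of 9 runs, as were miR-1291, miR-5100, miR-6239 and miR-5121.

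Ratios to striatum, from 1 fit of all 4 tissues, place the leading miRNAs. They share the cortex and hypothalamus libraries with the ratios above. miR-653 was higher in hypothalamus than in striatum by a log2 ratio of 2.28, and it was lower in cortex than in striatum (-4.02). Against striatum miR-217 had 1.73 in hypothalamus and -3.74 in cortex, and miR-3547 had 1.92 and -3.36. Striatum thus lay between hypothalamus and cortex for these 3. miR-128-1 was higher in cortex than in striatum by 1.43, and miR-128-2 by 1.10, while hypothalamus lay below striatum with -1.84 and -1.18. For miR-139 and miR-138-1, cortex over striatum had 0.17 and 0.39, and hypothalamus over striatum -1.65 and -1.79. miR-204 was lower in hypothalamus than in striatum (-0.48).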

How the data were processed

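The authors deposited unnormalized read counts per miRNA hairpin, 1 table per tissue. HTSeq 0.10.0, STAR 2.7.3a and build GRCm38 (mm10) are listed in the submitters' processing notes. How reads were trimmed, which miRBase release was used and how reads with several matches were counted is not given in the sources used here. Per the labels, tissue was flash frozen and total RNA enriched for small RNA.

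Counts were tested with edgeR 4.0.16 in R 4.3.3 (TMM scaling, filterByExpr by tissue, quasi-likelihood F tests, ZT as a factor), with p-values adjusted by Benjamini and Hochberg over the 376 hairpins. A call needed adjusted p under 0.05 and an absolute log2 ratio of at least 1. The interaction test used terms for tissue and ZT together. Levels are CPM on TMM-scaled totals, and shares are percent of raw totals. Ratios carry no shrinkage. Within-mouse ratios used 0.5 CPM as a pseudocount. The fit was tested on simulated data. Groups were read from titles and mice from codes in the descriptions.

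The mouse pairs 72 libraries of each tissue. The median correlation of a mouse's 2 libraries after removing group means was 0.023, and 27 pairs exceeded 0.1. Of these mice 10 had the same replicate number in both tissues, so those numbers mark no mouse. Alternatives were DESeq2 1.42.0, other scalings, filters and thresholds, time as 13 points, subsets of libraries, run and mouse as terms. Settings without the 2 or the 6 libraries that stood apart, or the 3 nearest to the other tissue, were chosen after seeing the data. Of 703 pairs of libraries within a group none agreed within sampling noise (chi-square per degree of freedom at least 11.1).

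Named miRNAs were the 10 largest ratios on each side among called miRNAs with a mean of at least 100 CPM, the 5 most abundant of each tissue, the top 3 tested members of each list or all of 6 or fewer, the interaction calls, the 5 ratios nearest 0 at 1000 CPM or more, hairpins of 1 seed called on opposite sides, and those nearest the threshold. Chosen after their values were seen were miR-148a, miR-205, miR-216a, miR-216b, miR-489, miR-7a-1, miR-1251, the Dlk1-Dio3 neighbors and calls, single members of larger lists (such as let-7b, miR-98, miR-9-1 and miR-16-1) and the miRNAs that followed the runs. Members and lists were chosen with earlier results of these data known. Not all of the 141 miRNAs picked by these rules are mentioned above. Positions came from RefSeq (1176 of 1226 hairpins) and host genes from GENCODE, both GRCm38. Python 3.11.15, pandas 2.3.3, numpy 2.4.6 and matplotlib 3.10.9 were used for tables and plots.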

Additional observations from a re-analysis of the deposited data

Results flagged for a closer look

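The edgeR test of tissue by ZT called 6 miRNAs: miR-375 (adjusted p = 2.69e-07), miR-141 (3.60e-05), miR-200c (3.60e-05), miR-200b (0.00278), miR-429 (0.00387) and miR-200a (0.00501). It called 0 without the 2 hypothalamus libraries highest in miR-375, and 0 with the mouse as a replicate block. In these 6, single libraries stood far from the others of their time. The check was made only in these 6 miRNAs, 5 of them 1 family, and the same libraries recur, so its 18 results are not separate and say nothing against chance, which alone gives about 1 in 20 groups.

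Hypothalamus ZT9 replicate 8 stood above the other 9 in all 6. It held 90400 CPM of miR-375 (median of the others 589), 6690 of miR-141 (60.2), 555 of miR-200c (6.42), 934 of miR-200b (27.5), 977 of miR-200a (24.6) and 1150 of miR-429 (32.4). Cortex ZT15 replicate 1 stood above the other 5 in 5 of the 6, with 543 CPM of miR-141 (7.96), 91.0 of miR-200c (1.86), 947 of miR-200b (23.7), 870.0 of miR-200a (15.0) and 1520 of miR-429 (32.2). Cortex ZT21 replicate 2 did so in the same 5, with 258 CPM of miR-141 (25.4), 42.1 of miR-200c (4.97), 354 of miR-200b (60.3), 374 of miR-200a (36.4) and 665 of miR-429 (76.6).

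In hypothalamus, ZT18 replicate 1 held 1120 CPM of miR-375 against a median of 459 in the other 4, and ZT21 replicate 2 held 145 CPM of miR-141 against 41.8. Groups of 11 or 12 libraries were too large for this check and were left out. These were Cortex ZT0, ZT3, ZT6, ZT9 and ZT12, and Hypothalamus ZT0, ZT3, ZT6 and ZT12.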

How the results depend on the processing

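The split of calls held its order under each alternative fit of the tissue difference at the same threshold, with 50 to 122 called higher in hypothalamus and 39 to 96 in cortex against 62 and 46. The high ends, 122 and 96, came with no filter on low counts (974 hairpins tested), which kept all 108 calls. With a ratio threshold of 1.5 times the numbers were 94 and 102, and with none 167 and 172. With the mouse as a replicate block they were 62 and 48, of which 60 and 45 were shared, and no call was in the opposite direction under any setting. With library totals the median ratio moved to 0.079, and miR-125b-2 and miR-101b, not called, turned to 0.087 and 0.074 (adjusted p = 5.26e-04 and 0.00914). With 1 hypothalamus library of ZT15, ZT18 or ZT21, or Cortex ZT0 replicate 1, left out, calls ran from 63 to 64 and from 43 to 47, the median ratio from -0.035 to 0.013, and interaction calls from 6 to 7. Of 141 named miRNAs, 121 kept their call or lack of one under all 31 settings. With no threshold the calls at ZT0 to ZT21 were 138, 137, 139, 137, 148, 112, 123 and 119 higher in hypothalamus and 151, 144, 147, 145, 151, 116, 128 and 127 in cortex. The interaction called 6; with the replicate block 0, without the 2 libraries highest in miR-375 0, without the 6 that stood apart 0, without Hypothalamus ZT9 replicate 8 alone 3, and without Cortex ZT15 replicate 1 and Hypothalamus ZT0 replicate 12 it called 10. Without Hypothalamus ZT0 replicate 9 alone the interaction still called 6. The causes were not tested. At low levels, as for miR-489, miR-216b and miR-344e in cortex, depth limits the ratio, since most cortex libraries held a few counts or none.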
